A study of Mus musculus with 4 samples.

Results

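The TRAF adaptor family is described here in splenic helper T cells, as the 6 genes Traf1, Traf2, Traf3, Traf4, Traf5 and Traf6. They were taken by symbol from tables of 23700 rows with 23234 different symbols, and each of the 6 stood on a single row. TRAF proteins are adaptors of the cytoplasm. Their C-terminal TRAF domain binds the tails of TNF receptor family members, or adaptors of the IL-1 and Toll-like receptors, and every member but TRAF1 has an N-terminal RING finger of the kind found in ubiquitin ligases. In T cells they connect co-stimulatory receptors to NF-kB and MAP kinase signalling, and TRAF2 brings the cIAP ligases that ubiquitinate RIPK1 to the TNF receptor.

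RNA came from helper T cells of the spleen of C57BL/6 mice aged 43 weeks. WT 1 and WT 2 are labelled wild type, and KO 1 and KO 2 are labelled RIPK1-KO, which the series design describes as a knockout specific to T cells. The sources used here do not give the Cre line, the part of Ripk1 removed or the number of mice behind each library. All titles carry the tag Ctrl, which is not explained. Because the labels do not name separate animals, p-values reflect only how far these libraries differ within a group, and part of that spread may be technical. The p-values and SE from limma draw on the spread of all tested genes as well as that of the gene itself.

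The value deposited for each gene and library is an FPKM, that is, a fragment count divided by transcript length in kilobases and by the mapped total. The depth was estimated from low values, at 17500000 to 22100000 fragments per library. The depth taken was that with the largest share of low genes within 0.05 of a whole number of fragments from 1 to 4. This share, the largest by that choice, was 37.4% to 49.4% of 497 to 677 low genes per library. The median of this share over the depths tried was 2.95% to 3.64%. At the estimated depth 1 FPKM of a transcript of 2 kb stood for 31.5 to 39.8 fragments. Ripk1, the targeted gene, read 5.61 FPKM in WT 1, 5.60 in WT 2, 10.4 in KO 1 and 9.54 in KO 2. Both libraries labelled KO were thus above the wild type (log2 change 0.73, limma adjusted p = 0.0262), so the whole-gene value as deposited goes against the label. After trimmed-mean scaling and quantile normalization its log2 change was 0.31 and 0.28 and did not pass (limma adjusted p = 0.222 and 0.257), and it was not lower on any of these scales. Directions below are those of the libraries labelled KO. A value summed over a gene does not check the loss of single exons. The helper T cell markers Cd4, Cd3e, Cd3d and Cd3g were at 61.3 FPKM or more in all 4 libraries, and they did not move as one. Cd4 and Cd3e were higher in the libraries labelled KO as deposited (limma adjusted p = 0.0173 and 0.0262), Cd3g overlapped, and Cd3d was lower after trimmed-mean scaling (log2 change -0.76, limma adjusted p = 0.0422). The summed B cell markers were 6.62 and 6.51 FPKM in the wild type against 14.2 and 13.6 in the libraries labelled KO, while Pax5 was highest in WT 1 (0.417 FPKM), listed at 0 in WT 2, and low in KO 1 (0.113) and KO 2 (0.103). Summed myeloid markers were 2.30 and 3.21 against 6.49 and 7.41 FPKM, with Cd14 listed at 0 in 3 libraries. The most abundant of them, Lyz2, read 0.164 and 1.53 against 2.99 and 4.38 FPKM. Among markers that overlapped were Itgam (0.606 and 0.404 against 0.430 and 0.533) and the B cell marker Cd79a (3.19 and 3.13 against 2.93 and 4.90). Marker sums are as deposited, without scaling between libraries. Summed erythroid markers were 6.33, 99.2, 395 and 321 FPKM in WT 1, WT 2, KO 1 and KO 2, nearly all of it from Hba-a2 and Hbb-b2. The part of these other cells in the results below was not tested, and in bulk RNA fewer cells of a type and less RNA per cell cannot be told apart.

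Traf1, Traf2, Traf3 and Traf6, 4 of the 6 TRAF genes, were higher in the libraries labelled KO in the values as deposited. Traf4 and Traf5 did not pass, and no member was called lower. The test was limma on log2(FPKM + 1) over 11074 rows with at least 1 FPKM in at least 2 libraries, with p adjusted by the method of Benjamini and Hochberg and a threshold of 0.05. All 6 members passed the filter on low values in both groups. The same test called 25.6% of all rows higher and 1.0% lower. The median gene itself stood 0.38 higher on the log2 scale, and the median of the 6 members 0.71. After scaling each library by a trimmed mean of log ratios the median gene stood at -0.01, the median member at 0.28, and 0 members passed in limma in either direction. With that scaling 4.68% of all rows were called higher and 5.20% lower, and 3 members (Traf1, Traf3 and Traf5) had an unadjusted p under 0.05. So did 1838 of the 11074 rows with a higher value and 2043 with a lower one, so an unadjusted p of this size was common. Quantile normalization also left 0 members called, where 1.62% of rows were higher and 0.695% lower. Counted without a test, both libraries labelled KO lay above both others for 4 members and below for 0 as deposited, against 58.5% and 12.1% of rows. After trimmed-mean scaling the counts were 4 above and 1 below, against 31.9% and 33.5% of rows. The members' changes are therefore given both as deposited and relative to the other genes.

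**Figure D1:**
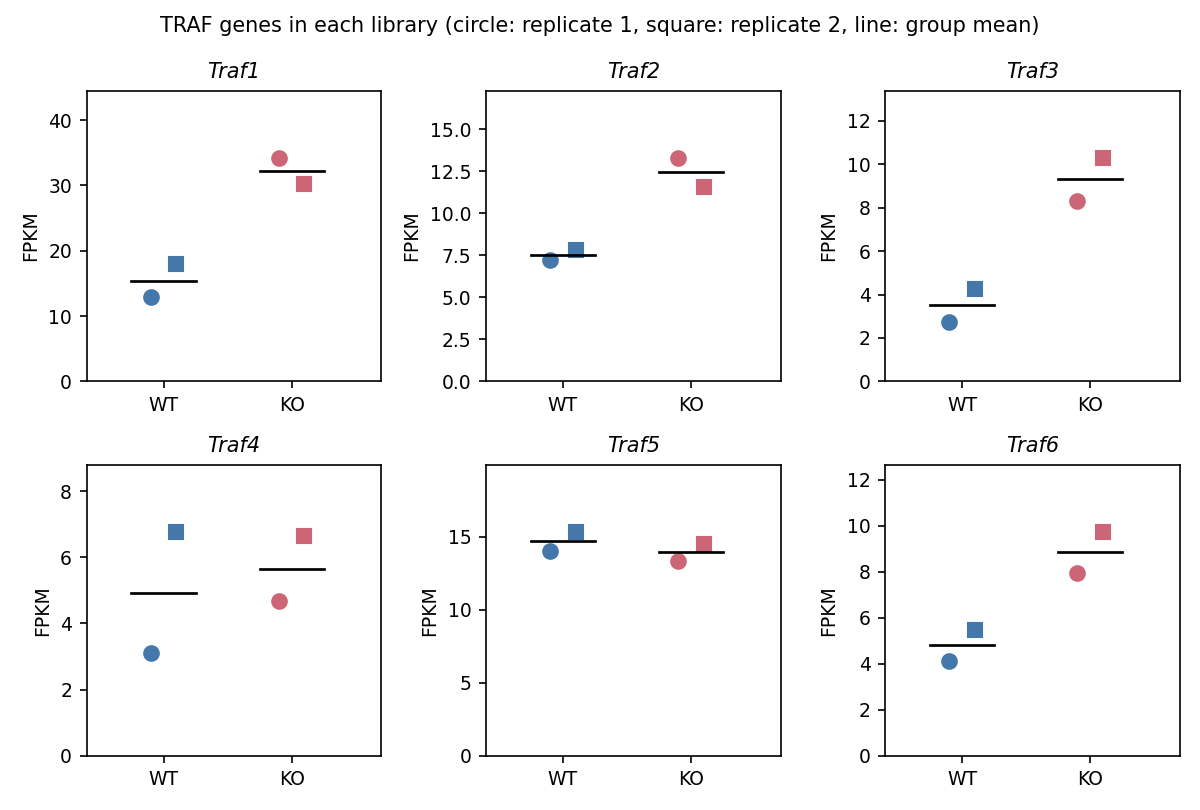
FPKM of the 6 TRAF genes (vertical axes, each from 0) in the 2 libraries labelled wild type and the 2 labelled KO; points are libraries and lines are group means. Both KO points lie above both WT points for Traf1, Traf2, Traf3 and Traf6, while the groups overlap for Traf4 and Traf5.

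Traf3 showed the largest change of the family. TRAF3 works with TRAF2 and the cIAP ligases to mark the kinase NIK for destruction, which restrains the non-canonical NF-kB pathway. Traf3 read 2.76 FPKM in WT 1, 4.26 in WT 2, 8.31 in KO 1 and 10.3 in KO 2. Both libraries labelled KO were well above both wild-type libraries, and the groups did not overlap. The mean went from 3.51 ± 1.06 to 9.31 ± 1.41 FPKM (SD, n = 2 and 2), a ratio of 2.65, and limma put the log2 change at 1.21 ± 0.23 (SE; adjusted p = 0.0171). Of all tested rows 94.1% had a smaller change. With trimmed-mean scaling Traf3 differed by a log2 value of 0.80 ± 0.21 (SE; limma adjusted p = 0.057), and as deposited the call ended without WT 1 (log2 change 0.96, limma adjusted p = 0.099).

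Traf1 was the most abundant member in the libraries labelled KO. TRAF1 is the member without a RING finger, is known as an NF-kB target gene and joins TRAF2 and the cIAP ligases at receptors such as TNFR2 and CD137. Traf1 read 12.9 FPKM in WT 1, 18.0 in WT 2, 34.3 in KO 1 and 30.1 in KO 2. Every library labelled KO was well above both wild-type libraries. The means were 15.4 ± 3.62 and 32.2 ± 2.91 FPKM (SD, n = 2 and 2), a ratio of 2.09, and the log2 change was 1.03 ± 0.23 (SE; limma adjusted p = 0.0232), above that of 90.0% of tested rows. Relative to the median gene it was 0.65 higher. Trimmed-mean scaling left a log2 change of 0.57 ± 0.17 (SE) and ended the call (limma adjusted p = 0.0729). The call was also lost as deposited without WT 1 (log2 change 0.80, limma adjusted p = 0.1) and without KO 1 (0.94, limma adjusted p = 0.0782).

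Traf2 and Traf6 rose less. TRAF2 is the adaptor of TNF receptor 1 and receptor 2 and the docking site of the cIAP ligases. Traf2 read 7.23, 7.84, 13.3 and 11.6 FPKM in WT 1, WT 2, KO 1 and KO 2. The wild-type libraries lay close together and below both others, and Traf2 differed by 0.65 ± 0.18 on the log2 scale (SE; limma adjusted p = 0.0404), which was 0.27 more than the median gene. TRAF6 is the ligase that makes lysine-63 ubiquitin chains downstream of IL-1, IL-18 and Toll-like receptors and of the T cell receptor. Traf6 read 4.14 FPKM in WT 1, 5.48 in WT 2, 7.96 in KO 1 and 9.73 in KO 2. These groups did not overlap either, and Traf6 differed by 0.77 ± 0.20 on the log2 scale (SE; limma adjusted p = 0.0355), which was 0.39 more than the median gene. Trimmed-mean scaling brought these changes to 0.21 ± 0.16 and 0.35 ± 0.18 (SE; limma adjusted p = 0.363 and 0.226). The call for Traf2 ended whichever library was left out, at limma adjusted p = 0.136 without WT 1, 0.068 without WT 2, 0.239 without KO 1 and 0.0919 without KO 2. That for Traf6 ended without WT 1 (limma adjusted p = 0.153), without WT 2 (0.0534) and without KO 2 (0.126).

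Traf5 was the member that lagged behind the other genes. TRAF5 serves the receptors OX40, CD27 and GITR on T cells and is known to bind gp130 and to limit IL-6 signalling in naive helper T cells. It read 14.0 FPKM in WT 1, 15.3 in WT 2, 13.4 in KO 1 and 14.5 in KO 2. The groups overlapped, the means were 14.7 ± 0.92 and 13.9 ± 0.83 FPKM (SD, n = 2 and 2), and the log2 change was -0.07 ± 0.18 (SE; limma adjusted p = 0.79). Set against the median gene this was -0.45, and only 19.7% of tested rows had a smaller change. After trimmed-mean scaling Traf5 read 17.8, 16.9, 11.0 and 12.6 FPKM in WT 1, WT 2, KO 1 and KO 2. On that scale both libraries labelled KO lay below both wild-type libraries, with a log2 change of -0.52 ± 0.16 (SE) that did not pass (limma adjusted p = 0.0748).

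Traf4 gave no difference between the genotypes larger than that between libraries of a group. TRAF4 is known from epithelial and neural development more than from immune receptors. It read 3.10 FPKM in WT 1, 6.77 in WT 2, 4.68 in KO 1 and 6.64 in KO 2, so that the lowest and the highest library were both wild type. The log2 change was 0.22 ± 0.32 (SE; limma adjusted p = 0.619), and its sign turned with trimmed-mean scaling (-0.17, limma adjusted p = 0.717) and without WT 1 (-0.24, limma adjusted p = 0.556). An exact two-sided permutation test of 2 against 2 libraries cannot give a p under 0.333, and that was its value for Traf1, Traf2, Traf3 and Traf6; it was 1 for Traf4 and 0.667 for Traf5.

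**Figure D2:**
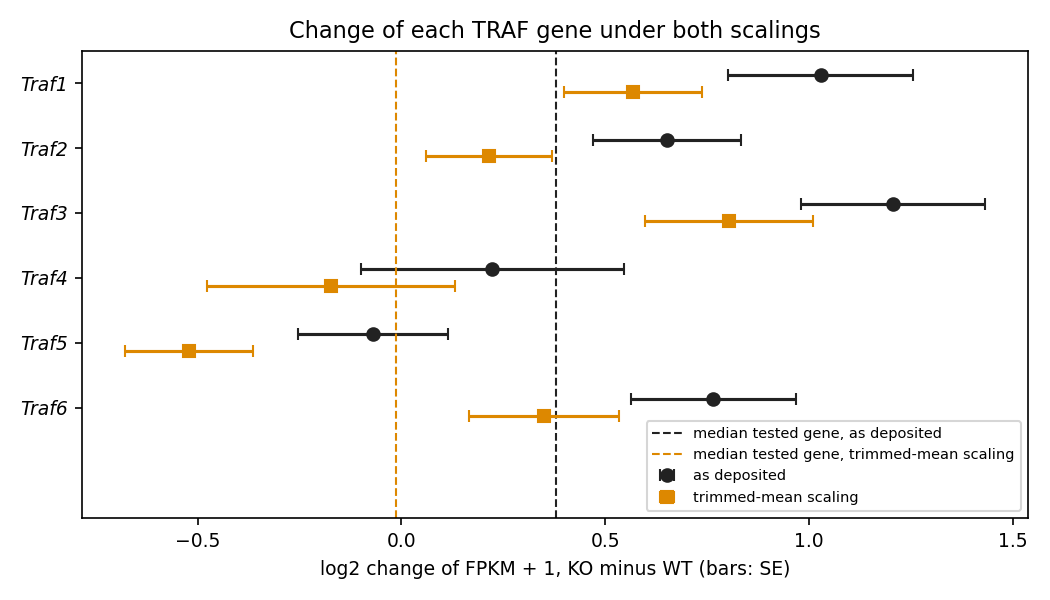
Log2 change of FPKM + 1 (horizontal axis, libraries labelled KO minus wild type, bars SE) of each TRAF gene as deposited and after trimmed-mean scaling; dashed lines mark the median tested gene at 0.38 and -0.01. Traf3 and Traf1 lie farthest to the right of the median gene and Traf5 farthest to the left under both scalings.

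The order of the levels changed with the relative moves. FPKM is per length, so levels of different members can be compared. In the wild type Traf1 (mean 15.4 FPKM) and Traf5 (14.7 FPKM) stood at the top and overlapped, with Traf5 higher in WT 1 and Traf1 higher in WT 2. Traf2 (7.54 FPKM) followed apart from both. Traf4, Traf6 and Traf3 (4.93, 4.81 and 3.51 FPKM) closed the order, and neighbours among these overlapped. In the libraries labelled KO the order was Traf1 (32.2 FPKM), Traf5 (13.9), Traf2 (12.4), Traf3 (9.31), Traf6 (8.85) and Traf4 (5.66), in which only Traf3 and Traf6 overlapped as neighbours. Traf3 thus moved from the last place in both wild-type libraries to the fourth in both others, and Traf4 was last in KO 1 and KO 2.

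Shares and ranks within a library do not depend on how libraries are scaled to each other. Traf1 made up 29.2% and 31.2% of the summed FPKM of the 6 genes in the wild type and 41.8% and 36.4% in the libraries labelled KO. The share of Traf5 was 31.8% and 26.6% in the wild type and 16.3% and 17.5% in the libraries labelled KO. Traf3 held 6.25% in WT 1, 7.38% in WT 2, 10.2% in KO 1 and 12.4% in KO 2. The share of Traf6 was 9.37%, 9.50%, 9.72% and 11.7% in WT 1, WT 2, KO 1 and KO 2. These 4 shares did not overlap between the groups, that of Traf6 narrowly. How often this holds for shares in other sets of genes was not counted. Of all within-library ratios of 2 genes with at least 1 FPKM in all 4 libraries, 63.8% did not overlap either. Traf4 had 7.01%, 11.7%, 5.71% and 8.01% in WT 1, WT 2, KO 1 and KO 2 and overlapped. Traf2 had 16.4%, 13.6%, 16.3% and 13.9% in WT 1, WT 2, KO 1 and KO 2, a share that overlapped. The sum of the family was 44.1, 57.7, 81.9 and 82.9 FPKM in that order of libraries as deposited and 55.8, 63.7, 67.7 and 71.7 FPKM after trimmed-mean scaling. Measured by rank, Traf1 lay above 76.1% and 79.6% of the tested rows in the wild type and above 87.8% and 86.3% in the libraries labelled KO. Traf3 went from above 32.0% and 40.9% of rows to above 51.2% and 59.4%. Traf5 went the other way, from above 78.0% and 76.0% of rows to above 66.4% and 69.6%. Traf2 went from 60.6% and 58.7% to 66.3% and 63.2%, and Traf6 from 43.6% and 48.2% to 49.8% and 57.5%. Traf4 overlapped, at 35.2% and 54.9% against 32.9% and 44.9%. How often the ranks of other rows moved so was not counted. In trimmed-mean scaled FPKM, 31.9% of all rows lay wholly above and 33.5% wholly below in the libraries labelled KO.

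**Figure D3:**
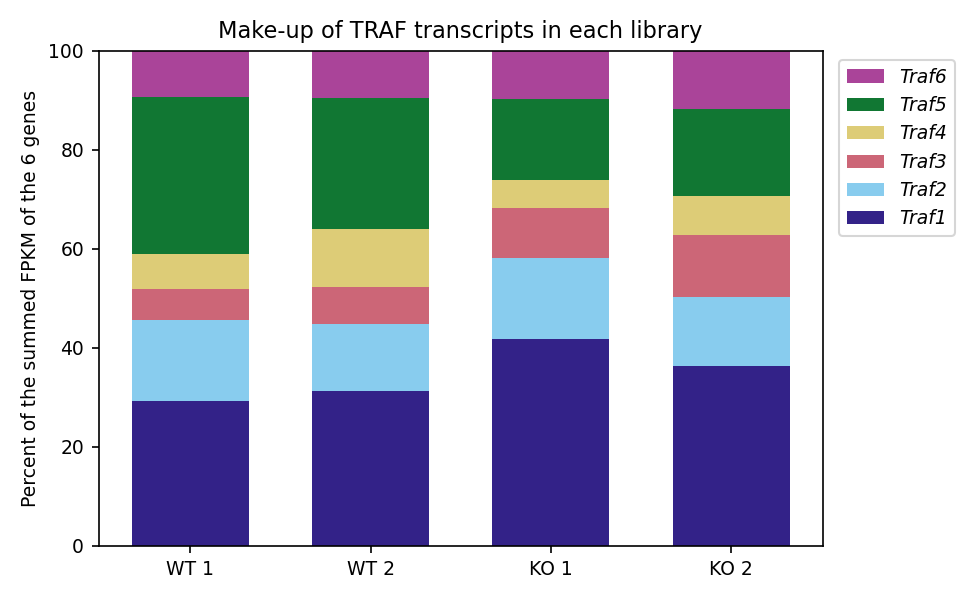
Percent of the summed FPKM of the 6 TRAF genes (vertical axis) taken by each gene in each library. Traf5 takes 26.6% to 31.8% in the wild type and 16.3% to 17.5% in the libraries labelled KO, while Traf1 and Traf3 take larger shares in the latter.

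Ratios between members were taken within each library. The ratio of Traf1 to Traf5 was 0.918 in WT 1, 1.17 in WT 2, 2.56 in KO 1 and 2.07 in KO 2. That of Traf3 to Traf5 was 0.197 and 0.278 in the wild type and 0.622 and 0.709 in the libraries labelled KO, a log2 difference of 1.51. Traf2 to Traf5 was nearly equal in WT 1 and WT 2, at 0.515 and 0.512, and higher in KO 1 and KO 2, at 0.997 and 0.795. The ratio to Traf5 of Traf1, Traf2, Traf3 and Traf6 was higher in both libraries labelled KO than in both others, and the ratio of Traf4 overlapped. Of the 9583 other genes with at least 1 FPKM in all 4 libraries, 62.7% had such a higher ratio to Traf5, so a higher ratio to Traf5 was common among all genes. Of the 15 pairs of members, 11 (73.3%) had ratios that did not overlap between the groups, against 63.8% of all pairs of such genes, so that the count for the family lay near that of any pair of genes. The partners TRAF2 and TRAF3 were among these pairs: Traf2 to Traf3 was 2.62 in WT 1, 1.84 in WT 2, 1.60 in KO 1 and 1.12 in KO 2.

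The sequence before the start site is shown for Traf1, Traf3 and Traf5, the members farthest above and below the median gene. Each line gives the 250 bases before the RefSeq start (GRCm38.p6), read 5′ to 3′ on the strand of the gene. Capitals mark a match to an NF-kB motif, GGG, any 3 bases and then TTCC, which was searched on both strands and was the only motif searched. The windows are chr2:34961773-34962022 (minus strand) for Traf1, chr12:111166120-111166369 (plus strand) for Traf3 and chr1:192092600-192092849 (minus strand) for Traf5.
Traf1: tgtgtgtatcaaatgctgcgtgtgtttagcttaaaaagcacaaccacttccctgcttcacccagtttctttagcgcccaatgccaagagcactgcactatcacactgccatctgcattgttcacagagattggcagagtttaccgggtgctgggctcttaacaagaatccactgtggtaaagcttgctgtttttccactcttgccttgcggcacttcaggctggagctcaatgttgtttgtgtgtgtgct
Traf3: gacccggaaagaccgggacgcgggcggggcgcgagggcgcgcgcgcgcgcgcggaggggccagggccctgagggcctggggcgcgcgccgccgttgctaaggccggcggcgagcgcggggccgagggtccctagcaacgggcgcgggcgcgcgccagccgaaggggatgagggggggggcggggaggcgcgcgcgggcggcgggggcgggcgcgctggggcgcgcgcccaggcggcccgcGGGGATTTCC
Traf5: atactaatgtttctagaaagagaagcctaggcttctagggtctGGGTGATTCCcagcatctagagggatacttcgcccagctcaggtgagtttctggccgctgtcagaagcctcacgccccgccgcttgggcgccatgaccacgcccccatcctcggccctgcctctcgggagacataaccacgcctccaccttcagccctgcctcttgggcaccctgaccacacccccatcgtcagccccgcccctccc

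In Traf3 the match began 10 bases before the start and ended next to it. In Traf5 the match began 207 bases before the start. Traf2 held a match, GGGTGTTTCC, that began 31 bases after the start, and no match was found in the windows of Traf1, Traf4 and Traf6. In all, 3 of the 6 members matched in windows of 300 bases around the start, against 5.56% of the 32851 promoter windows in the RefSeq table. The windows also differ in make-up. That of Traf3 was 84.0% G and C with 59 CpG sites, more G and C than 99.8% of all windows, while that of Traf1 was 48.7% G and C with 4 CpG sites. The medians over all windows were 52.7% and 7 sites. A match is only a run of letters, and binding was not measured here.

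The other genes of the pathway were taken from lists by role. Of 14 TNF family ligands 9 were tested. As deposited 25.6% of all rows rose. Of the ligands 4 rose and 0 fell (median log2 change 0.39, against 0.38 for all genes). They were Tnfsf8 (the CD30 ligand), Tnf, Tnfsf11 (RANKL) and Tnfsf14 (LIGHT). Tnfsf8 read 5.06 FPKM in WT 1, 6.57 in WT 2, 37.4 in KO 1 and 37.6 in KO 2, with a log2 change of 2.51 (limma adjusted p = 0.00558). Tnf read 5.53, 7.68, 18.7 and 20.1 FPKM in the same order, a log2 change of 1.44 (limma adjusted p = 0.0131). Both of these passed after trimmed-mean scaling as well (limma adjusted p = 0.00993 and 0.0323) and under quantile normalization (0.0165 and 0.0494), and the other 2 did not. On these scales 4.68% and 1.62% of all rows were called higher. The most abundant ligand, Ltb, read 230, 278, 254 and 190 FPKM and did not pass in either direction (limma adjusted p = 0.581).

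Of 15 receptors that recruit TRAFs 9 were tested, and 5 rose and 0 fell as deposited, where 25.6% of all rows rose. The median log2 change was 1.23 over the tested receptors, against 0.38 for all genes. The other 4 tested receptors did not pass: relative to the median gene Tnfrsf1a stood at -0.87, Cd27 at -0.01, Tnfrsf25 at 0.14 and Tnfrsf13b at 0.28. Tnfrsf4, which encodes OX40, read 5.92 FPKM in WT 1, 10.5 in WT 2, 48.8 in KO 1 and 38.7 in KO 2 (log2 change 2.32, limma adjusted p = 0.0115). Tnfrsf1b, the TNF receptor 2, read 4.80, 6.83, 25.7 and 16.8 FPKM (log2 change 1.69, limma adjusted p = 0.0136). Tnfrsf9 (CD137), Tnfrsf14 (HVEM) and Tnfrsf18 (GITR) rose by 1.37, 1.41 and 1.23 on the log2 scale (limma adjusted p = 0.0151, 0.0129 and 0.0218). After trimmed-mean scaling 4 still passed, without Tnfrsf18 (limma adjusted p = 0.058), and 1 receptor was called lower. That scaling called 4.68% of all rows higher and 5.20% lower, and quantile normalization 1.62% and 0.695%. Under quantile normalization 1 was called higher, Tnfrsf4 (limma adjusted p = 0.0413), and Tnfrsf14, Tnfrsf1b and Tnfrsf9 did not pass (limma adjusted p = 0.0535, 0.0545 and 0.0608). The receptor called lower under both was Tnfrsf1a, the TNF receptor 1 to which RIPK1 is recruited, at 6.04 FPKM in WT 1, 7.97 in WT 2, 4.65 in KO 1 and 4.64 in KO 2. Its log2 change was -0.49 as deposited (limma adjusted p = 0.0968) and -0.90 after trimmed-mean scaling (limma adjusted p = 0.0359). The 6 receptors that were not tested, among them Cd40 and Ltbr, stayed near or under 1 FPKM in all libraries.

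Of 17 genes that feed into TRAF6, 16 were tested, and 7 rose and 0 fell as deposited, where 25.6% of all rows rose. The list had a median log2 change of 0.69, against 0.38 for all genes. Malt1, a protease and scaffold that links the T cell receptor to TRAF6, read 14.5 FPKM in WT 1, 18.0 in WT 2, 30.9 in KO 1 and 38.3 in KO 2 (log2 change 1.05, limma adjusted p = 0.0208). Il18rap, a chain of the IL-18 receptor, read 0.675 and 0.178 against 3.93 and 2.74 FPKM (log2 change 1.61, limma adjusted p = 0.0139), and Il1r1, the IL-1 receptor, 0.103 and 0.139 against 1.18 and 1.63 FPKM (log2 change 1.09, limma adjusted p = 0.0182). Both passed the filter on low values only through the libraries labelled KO, where they were high, so their calls lend no support to the count, which is 5 without them. After trimmed-mean scaling they alone passed (limma adjusted p = 0.0432 and 0.0497), so that 0 of the other inputs did, and under quantile normalization 0 of all 16 did. On these scales 4.68% and 1.62% of all rows were called higher.

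Among 22 tested of 23 partners in TRAF complexes, Ripk1 included, 10 rose and 0 fell as deposited, where 25.6% of all rows rose. The partners had a median log2 change of 0.70, against 0.38 for all genes. Tank, a TRAF-binding regulator of the kinase TBK1, read 13.6, 19.0, 49.0 and 40.4 FPKM in WT 1, WT 2, KO 1 and KO 2 (log2 change 1.41, limma adjusted p = 0.0146). It was the 1 partner that passed after trimmed-mean scaling (limma adjusted p = 0.0371) and under quantile normalization (0.0468). On these scales 4.68% and 1.62% of all rows were called higher. Map3k5 (the kinase ASK1) and Tab1 and Tab2, which carry the kinase TAK1, rose by 1.03, 0.93 and 0.91 on the log2 scale (limma adjusted p = 0.0195, 0.0216 and 0.0218). Of 14 brakes on TRAF signalling 13 were tested, and 4 rose and 0 fell, a share near the 25.6% of all rows (median log2 change 0.55, against 0.38 for all genes). They were Tnip1 (a partner of A20), N4bp1, Itch and Usp25. Tnip1 read 13.7, 17.1, 39.3 and 36.3 FPKM (log2 change 1.25, limma adjusted p = 0.0142) and was the 1 brake that passed after trimmed-mean scaling (limma adjusted p = 0.0398) and under quantile normalization (0.0468).

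Downstream, 11 of 18 NF-kB subunits and target genes rose and 0 fell as deposited, all 18 being tested. The same test called 25.6% of all rows higher, and the list median log2 change was 1.19, against 0.38 for all genes. After trimmed-mean scaling 4 passed, Nfkb1, Nfkb2, Icam1 and Cd83, and under quantile normalization 2, Nfkb1 and Nfkb2. On these scales 4.68% and 1.62% of all rows were called higher. Nfkb2, the subunit of the pathway that TRAF3 restrains, read 6.06 FPKM in WT 1, 7.23 in WT 2, 23.4 in KO 1 and 20.4 in KO 2 (log2 change 1.58, limma adjusted p = 0.0115, and 0.0205 after trimmed-mean scaling). Nfkb1 read 16.8 and 23.2 against 49.9 and 47.7 FPKM (log2 change 1.26, limma adjusted p = 0.016). Icam1, an adhesion molecule, and Ier3 rose by 1.61 and 1.14 on the log2 scale (limma adjusted p = 0.0143 and 0.0151), and Ier3 did not pass after trimmed-mean scaling (limma adjusted p = 0.0554). Of 5 genes around the receptor gp130, which TRAF5 binds, 1 rose and 0 fell, a share near the 25.6% of all rows. Their median log2 change was 0.75, against 0.38 for all genes. The others did not pass, with Il6st, Jak1 and Socs3 at limma adjusted p = 0.0549, 0.0583 and 0.19. The gene that rose was Stat3, the transcription factor of IL-6 signalling, at 9.83, 15.9, 34.5 and 32.9 FPKM (log2 change 1.36, limma adjusted p = 0.0171). Stat3 passed after trimmed-mean scaling (limma adjusted p = 0.0476) and not under quantile normalization (0.0545). The number of rises in each of these lists without WT 1 was 0, or 1 for the inputs to TRAF6, when only 9 rows of the whole table were called higher. Without KO 1 the rises were 3 of the complex partners, and without KO 2 they were 5 of the complex partners and 2 of the brakes. Without KO 1 or WT 2, 3 and 2 of the gp130 genes rose.

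**Figure D4:**
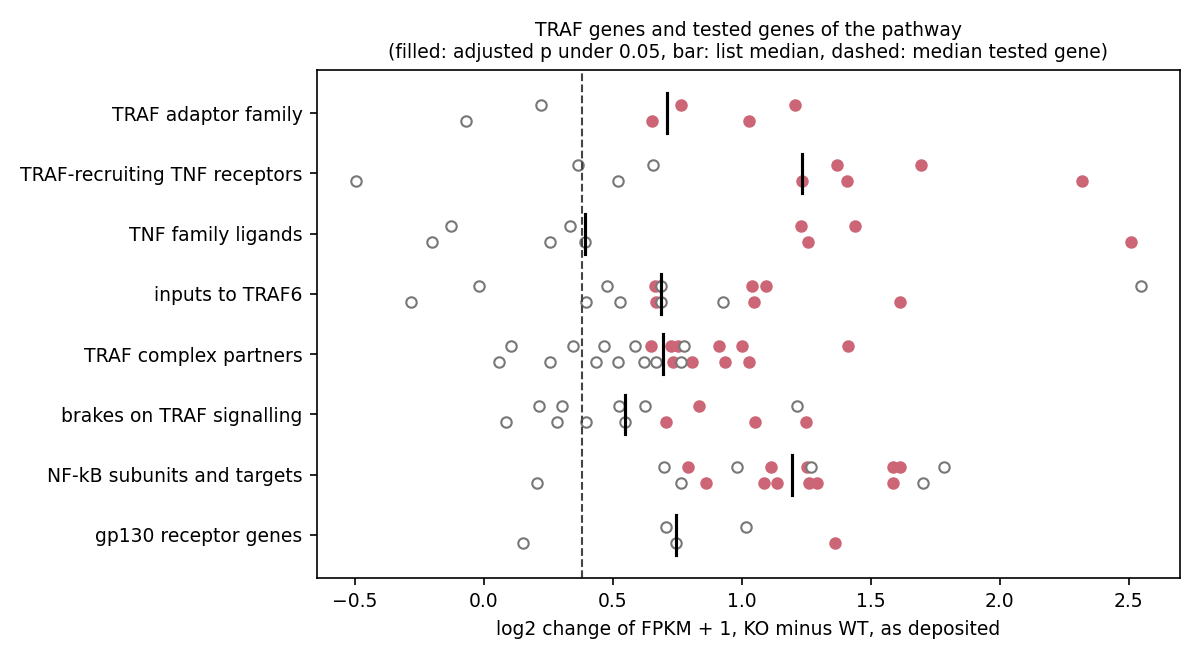
Log2 change of FPKM + 1 as deposited (horizontal axis, libraries labelled KO minus wild type) of each TRAF gene and of each tested gene of the pathway lists; filled points passed an adjusted p of 0.05 in limma, bars are list medians and the dashed line is the median tested gene at 0.38. The receptors and the NF-kB genes have medians of 1.23 and 1.19, the ligands a median of 0.39.

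The genes with the pattern most like each member were found by the Euclidean distance between log2(FPKM + 1) values over the 4 libraries, each gene centred on its own mean. Nearest to Traf1 were Pip4k2c and Tcirg1 (distances 0.029 and 0.051), and nearest to Traf3 were Itpkb and Mapk6 (0.045 and 0.061). For Traf2 they were Arhgef3 and Asb6 (0.013 and 0.025), for Traf6 Crtc1 and Zfp148 (0.041 and 0.043), and for Traf5 Pdcd10 and Acp6 (0.027 and 0.036). Traf4 had Tra2b and Tspyl1 (0.064 and 0.075). With 4 libraries many genes share a pattern: 846 tested rows lay within 0.2 of Traf2, 418 of Traf6, 406 of Traf5, 230 of Traf1, 70 of Traf3 and 38 of Traf4.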

How the data were processed

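The deposited values are FPKM per gene symbol, in a separate table for each library, per the file headers. Per the submitters' processing notes, reads were handled with Bowtie 0.12.2 and the build mm8. Which program computed the FPKM, the sources used here do not say. FPKM depends on each library's total, so changes in abundant genes shift all others. Members and lists were chosen with earlier results of these data known. The rule for named genes took the 6 members, Ripk1, up to 4 genes of each pathway list by unadjusted p, up to 3 markers per cell type by level, and 2 nearest patterns per member. It also names any gene that a count of 5 or fewer covers. Ltb, Cd40, Ltbr and the markers listed at 0 were named after their values were seen. Some items that the rule covers are not reported here. Rows with at least 1 FPKM in 2 libraries were tested with limma 3.58.1 in R 4.3.3 (intensity trend, pseudocount 1, two-sided, Benjamini-Hochberg over all tested rows). The fit was checked on simulated data with known raised genes. Those data had no shift of the median gene between the groups, so that check does not cover the shift seen as deposited. Trimmed-mean scaling trimmed 30% of log ratios and 5% of levels per side; WT 1 and WT 2 had factors of 0.791 and 0.905, and KO 1 and KO 2 of 1.21 and 1.16. Depth was estimated from low values with a fragment length of 200 assumed. Sequences are from RefSeq (GRCm38.p6), matched by symbol for 6 of 6 members.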

Additional observations from a re-analysis of the deposited data

How the results depend on the processing

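As deposited, 2832 rows and 4 TRAF members were called higher and 111 rows and 0 members lower. Trimmed-mean scaling gave 518 rows higher and 576 lower, quantile normalization 179 higher and 77 lower, and median centring 458 higher and 805 lower, each with 0 members called higher. With no filter limma called 0 rows higher, 0 lower and 0 members, with 4281 and 707 rows at an unadjusted p under 0.05. Robust hyperparameters gave 171 rows lower. On leaving out 1 library the rows called higher ran from 9 (without WT 1) to 2173, those lower from 1 to 132, and members called higher from 0 (without WT 1) to 2. The log2 change of Traf4 turned to -0.17 with trimmed-mean scaling, -0.24 with quantile normalization, -0.24 with median centring and -0.24 without WT 1, and was 0.68 without WT 2; the cause was not tested. Over all 15 alternatives the log2 change of Traf1 lay between 0.57 and 1.26, of Traf2 between 0.19 and 0.75, of Traf3 between 0.74 and 1.45, of Traf6 between 0.30 and 0.93 and of Traf5 between -0.53 and -0.01. The labels do not say that a replicate number marks a shared animal or day. With the replicate number as a block, 3909 rows were higher and 230 lower and 4 members were higher; the differences between replicates 1 and 2 of the groups had a Pearson r of 0.11 across 11074 genes, which are not independent.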

Other observations

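In several genes of the pathway the groups overlapped and replicate 2 lay far above replicate 1 in both; they were picked after their values were seen. Tnfaip3, which encodes the NF-kB brake A20, read 56.8 FPKM in WT 1, 208 in WT 2, 144 in KO 1 and 448 in KO 2. Nfkbiz, an inducible IkB protein, read 15.4, 39.7, 25.1 and 65.9 FPKM, and Irf1, an interferon regulatory factor, 58.5, 127, 73.8 and 135 FPKM in the same order. Zc3h12a, the RNase Regnase-1, read 9.25, 14.6, 12.9 and 26.3 FPKM. Among the TRAF members Traf4 was at 3.10 and 4.68 FPKM in WT 1 and KO 1 and 6.77 and 6.64 FPKM in WT 2 and KO 2, and replicate 2 was also the higher in both groups for Traf3, Traf5 and Traf6, by less. Tnfaip3, Nfkbiz, Irf1, Zc3h12a and Traf4 did not pass in limma as deposited, nor did Traf5, while Traf3 and Traf6 did. Irak1, a kinase upstream of TRAF6, was listed at 0 in WT 2 and at 37.0, 34.2 and 35.8 FPKM in WT 1, KO 1 and KO 2.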
